A study of Mus musculus with 24 samples.

Results

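This account describes 38 cell cycle and DNA replication genes among 43432 gene identifiers in a table of estimated counts from 24 mouse heart libraries. The genes were picked by symbol from known roles, with earlier results of these data in view: 24 act in mitosis (Mki67, Top2a, Cdk1, Ccna2, Ccnb1, Ccnb2, Bub1, Bub1b, Aurka, Aurkb, Plk1, Cdc20, Cenpa, Cenpe, Cenpf, Kif11, Kif20a, Kif23, Tpx2, Prc1, Nusap1, Birc5, Ube2c and Foxm1), 12 act in S phase (Rrm1, Rrm2, Tyms, Pcna, Mcm2 to Mcm7, Cdt1 and Cdc6), and 2 encode D-type cyclins (Ccnd1 and Ccnd2). Each symbol matched 1 identifier. Total RNA came from frozen whole hearts of C57BL/6 mice, with 4 libraries in each of 6 groups: sedentary mice (Sedentary), mice with wheel running for 8 weeks (Running), mice 2 weeks (TAC-LVH) or 8 weeks (TAC-HF) after transverse aortic constriction, and the sham-operated groups Sham-LVH and Sham-HF. In transverse aortic constriction (TAC) the aortic arch is tied to a narrower width, so that the left ventricle pumps against a raised pressure. The group names use LVH for left ventricular hypertrophy and HF for heart failure. Sex, age and the time from sham surgery to collection are not given in the labels.

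A cell that divides first passes from G1 into S phase, driven by D-type cyclins with their kinases, and E2F factors then switch on the genes for nucleotide supply and for the MCM helicase that opens DNA for copying. Genes for chromosome condensation, the kinetochore, the spindle and cytokinesis are switched on later, in G2 and mitosis, largely through B-MYB, FOXM1 and the DREAM/MuvB complex at promoter elements called CHR (cell cycle genes homology region) and CCAAT boxes. Most adult mouse cardiomyocytes have left the cycle, whereas fibroblasts, endothelial cells and immune cells of the heart can divide. Cenpf encodes centromere protein F, a very large protein of the kinetochore in mitosis that also binds microtubules and mitochondrial Miro proteins.

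The promoters of 6 of these genes are shown because their transcripts took different courses after TAC. Cdk1 (mitotic kinase) and Top2a (DNA topoisomerase II alpha) rose, Cenpf fell, Cenpa (the centromeric histone H3 variant) was not called, and Mcm6 and Mcm5 (helicase subunits) rose. The sequences are RefSeq windows on GRCm38.p6, from 250 bases before the annotated start to 50 bases from it, written 5′ to 3′ along the gene. Capitals mark CHR (TTTGAA), the CCAAT box (CCAAT) and E2F matches (TTTCGCGC or TTTGGCGC) on either strand, so that reverse complements are in capitals too, and overlapping matches run together.
Cenpf (chr1:189688037-189688336, minus strand): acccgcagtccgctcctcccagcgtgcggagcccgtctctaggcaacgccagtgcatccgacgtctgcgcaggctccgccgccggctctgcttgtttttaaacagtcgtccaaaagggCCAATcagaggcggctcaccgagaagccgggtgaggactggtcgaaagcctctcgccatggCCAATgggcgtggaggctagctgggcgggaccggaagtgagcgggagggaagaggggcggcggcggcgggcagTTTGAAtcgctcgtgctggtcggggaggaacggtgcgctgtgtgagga
Cdk1 (chr10:69352863-69353162, minus strand): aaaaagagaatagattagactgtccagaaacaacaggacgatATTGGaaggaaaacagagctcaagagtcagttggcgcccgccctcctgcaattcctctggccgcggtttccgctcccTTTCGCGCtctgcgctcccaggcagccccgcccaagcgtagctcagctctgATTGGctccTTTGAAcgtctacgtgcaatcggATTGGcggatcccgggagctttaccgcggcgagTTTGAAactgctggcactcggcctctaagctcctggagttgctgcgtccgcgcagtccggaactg
Top2a (chr11:99024140-99024439, minus strand): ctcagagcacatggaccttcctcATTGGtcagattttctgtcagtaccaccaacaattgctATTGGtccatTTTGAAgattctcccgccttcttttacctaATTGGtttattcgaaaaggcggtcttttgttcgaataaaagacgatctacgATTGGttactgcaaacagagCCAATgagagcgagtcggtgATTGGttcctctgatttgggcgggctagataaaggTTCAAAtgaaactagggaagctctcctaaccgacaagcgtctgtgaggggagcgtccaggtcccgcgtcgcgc
Cenpa (chr5:30666636-30666935, plus strand): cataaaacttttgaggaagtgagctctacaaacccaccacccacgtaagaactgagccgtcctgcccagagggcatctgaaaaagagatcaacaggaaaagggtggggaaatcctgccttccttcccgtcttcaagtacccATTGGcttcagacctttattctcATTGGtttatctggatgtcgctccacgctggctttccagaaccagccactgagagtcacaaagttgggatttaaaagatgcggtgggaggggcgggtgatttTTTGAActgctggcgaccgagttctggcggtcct
Mcm6 (chr1:128359656-128359955, minus strand): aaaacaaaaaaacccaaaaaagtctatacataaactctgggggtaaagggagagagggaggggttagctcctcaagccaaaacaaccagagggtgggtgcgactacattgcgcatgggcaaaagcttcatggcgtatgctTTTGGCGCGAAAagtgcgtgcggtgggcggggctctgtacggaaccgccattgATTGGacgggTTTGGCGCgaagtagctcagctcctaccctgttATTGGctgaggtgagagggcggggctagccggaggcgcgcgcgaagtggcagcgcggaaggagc
Mcm5 (chr8:75109259-75109558, plus strand): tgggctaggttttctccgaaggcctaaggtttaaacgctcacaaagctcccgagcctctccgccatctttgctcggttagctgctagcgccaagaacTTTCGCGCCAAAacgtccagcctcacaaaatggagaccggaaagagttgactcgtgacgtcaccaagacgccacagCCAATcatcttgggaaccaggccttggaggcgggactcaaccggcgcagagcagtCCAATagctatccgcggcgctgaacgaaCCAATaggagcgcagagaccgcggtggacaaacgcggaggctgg

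Cenpf, Cdk1, Top2a and Cenpa have both CHR and CCAAT letters in these windows, while Mcm6 and Mcm5 have CCAAT and E2F letters and no CHR match. The Cenpf window holds 1 CHR match at position 3 from the start and CCAAT boxes 132 and 71 bases before it. The RefSeq table held promoters of 30 of the 38 genes. Matches were counted by gene, in any of its promoters in the table. A CHR match was found for 14 of 19 mitotic genes (73.7%), for 1 of 11 S-phase genes (Mcm2, 9.09%) and for 20.2% of all 27025 genes with a promoter. CCAAT letters were found for 17 of 19 mitotic and 8 of 11 S-phase genes, against 41.1% of all. An E2F match was found for 5 of 11 S-phase genes (Mcm3, Mcm5, Mcm6, Mcm7 and Cdt1) and for 1 of 19 mitotic genes (Cdk1), against 0.929% of all. A match describes letters in this window and is not a measured binding site.

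Libraries held 16802939 to 39512101 counts in total, with a median of 22845050. Mitochondrially encoded transcripts took 50.7% to 73.6% of it, with 50.7% to 58.4% in the TAC libraries and 59.8% to 67.0% in the sham libraries. Counts outside the mitochondrial genes were 5949640 to 12932067, and the 38 genes together had 2444 to 7525 counts per library. Levels are CPM, a library's counts divided by its size so that libraries can be compared, with TMM factors over all 24 of them, as mean ± SD with n = 4. The defining cardiomyocyte markers were present, with a sum of 37863 CPM or more in every library. Of the 38 genes, 14 overlap an annotated gene on the opposite strand, protein-coding for 8 of them (Elovl1 for Cdc20), and Ccnb1, Ccnb2, Tyms and Pcna have named pseudogene copies. The strand setting of the counting is not given in the sources used here, so values of these genes could include reads of the partner or copy.

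Per kilobase of exon, the D cyclins and Pcna had the highest levels among the 38 genes in every group. Ccnd2 stood at 5.38 to 7.77 CPM per kb over the group means, Ccnd1 at 4.11 to 6.48 and Pcna, the sliding clamp of DNA polymerases, at 3.33 to 5.15. Cenpf was next at about the level of Cenpa in Sedentary (1.31 and 1.29 CPM per kb), Running and Sham-HF hearts, where it ranked 4 of 38. After TAC the rank of Cenpf was 18 of 38, at 0.344 CPM per kb in TAC-LVH and 0.285 in TAC-HF. Mki67, which encodes the proliferation marker Ki-67, had 0.306 to 0.634 CPM per kb in the 4 groups without TAC. Other mitotic genes were scarce. Aurkb, the kinase of the chromosomal passenger complex, and Plk1, polo-like kinase 1, had at most 14 and 15 counts in any library.

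**Figure D1:**
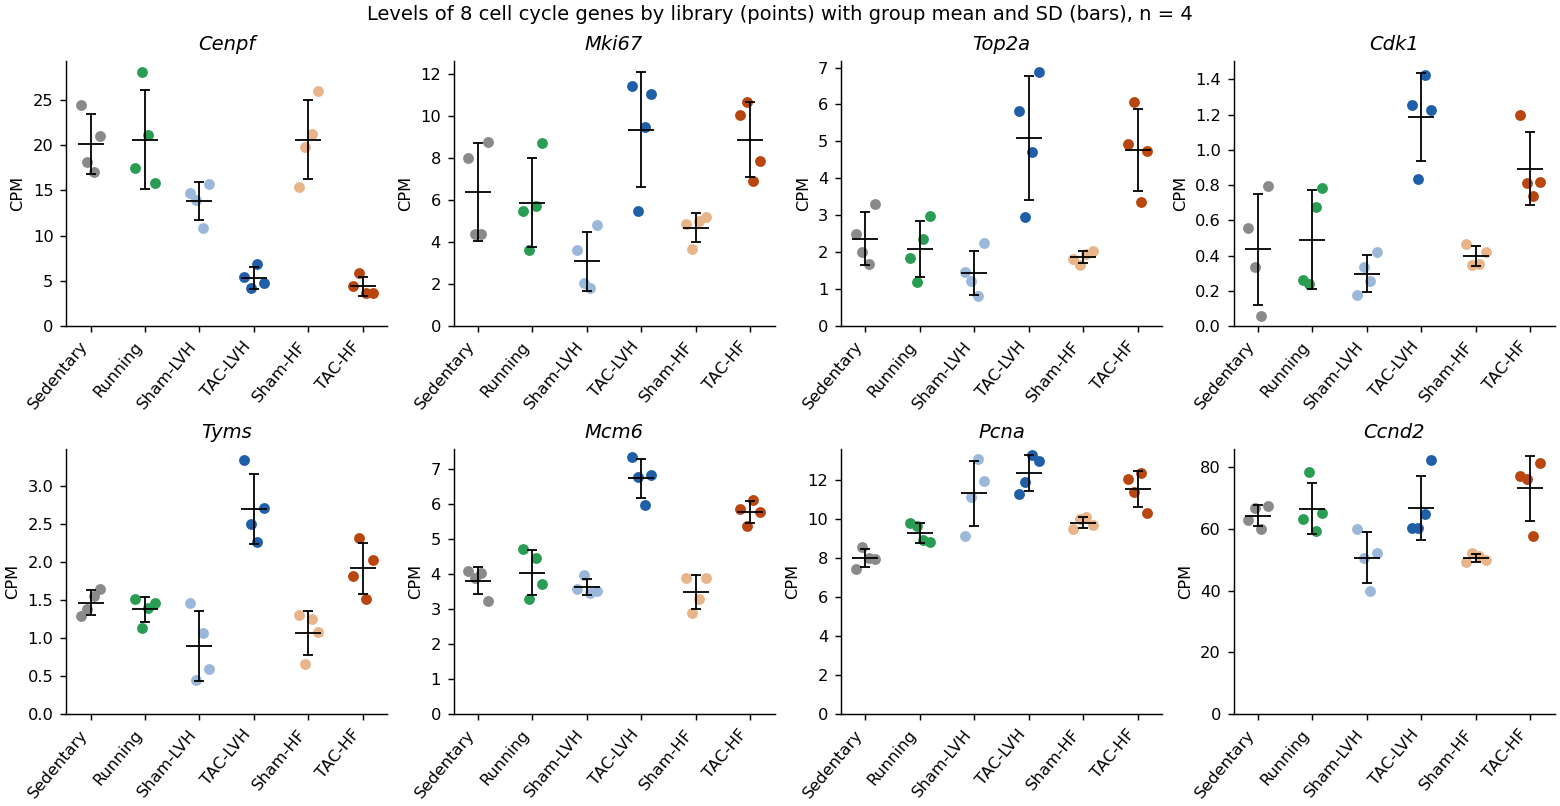
Levels of 8 cell cycle genes in CPM (y axis, from 0) in each library (points, 4 per group), with group mean and SD (bars), for the 6 groups (x axis). Cenpf lies at 3.63 to 6.90 CPM in the 8 TAC libraries and at 10.8 to 28.0 CPM in all others, while Mki67, Top2a and Cdk1 are higher in TAC libraries than in their shams.

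The comparison of TAC-LVH with Sham-LVH asks which of these genes differ 2 weeks after pressure overload. Most mitotic genes tested rose, Cenpf fell, and most S-phase genes did not pass the test. Of the 38 genes, 30 passed the filter on low counts, and 17 were called higher and 1 lower (edgeR quasi-likelihood test, adjusted p under 0.05), against 17.1% of 14224 genes called higher and 16.1% called lower. In RNA from whole hearts, fewer cells of a type and less RNA per cell cannot be told apart. Fibroblast markers summed to 2286 to 3056 CPM in TAC-LVH and 1021 to 1285 CPM in Sham-LVH, and their part in these results was not tested. A scarce gene can pass the filter through the group in which it is high. Without the filter 19 were called higher and 1 lower (background 9.88% and 8.75%), and 36 of 38 had a positive log2 fold change. The 4 TAC-LVH libraries lay wholly above the 4 sham libraries for 15 of the 38 genes and wholly below for 1. The background was 16.5% and 16.3% over the genes that passed the filter, while all 38 were counted here.

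Among mitotic genes, Cdk1, the kinase that drives entry into mitosis, had 1.25, 0.833, 1.42 and 1.229 CPM in the 4 TAC-LVH libraries and 0.179, 0.335, 0.257 and 0.422 CPM in Sham-LVH. Every TAC-LVH library was above every sham library. Cdk1 rose 3.98-fold (log2 1.99 ± 0.308 SE, edgeR adjusted p = 0.000287), from 0.298 ± 0.104 to 1.185 ± 0.250 CPM. Top2a, which untangles sister chromatids, had 5.82, 2.95, 4.71 and 6.87 CPM in TAC-LVH and 1.47, 1.228, 0.809 and 2.25 CPM in Sham-LVH. TAC-LVH library 2 was the lowest of its group, yet above all shams. Top2a rose 3.52-fold (log2 1.82 ± 0.311 SE, edgeR adjusted p = 0.00107). Mki67 had 11.4, 5.45, 9.46 and 11.1 CPM in TAC-LVH and 3.62, 2.07, 1.801 and 4.82 CPM in Sham-LVH, with TAC-LVH library 2 again the lowest and the groups apart. It rose 3.00-fold (log2 1.59 ± 0.323 SE, edgeR adjusted p = 0.00439).

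Of the 24 mitotic genes, 17 passed the filter, 13 were called higher and Cenpf alone was called lower, and without the filter 15 were called higher. The others called higher at 2 weeks had log2 fold changes of 0.82 to 1.74. They were the kinetochore motor Cenpe (1.74), the spindle motor Kif11 (1.64), the spindle assembly factor Tpx2 (1.46), cyclin A2 (Ccna2, 1.45), the midzone bundler Prc1 (1.39), the cytokinesis motors Kif23 (1.39) and Kif20a (1.32), the spindle protein Nusap1 (1.152), the APC/C activator Cdc20 (1.08) and the checkpoint kinase Bub1b (0.82). Cdc20 had 0.940, 0.341, 0.876 and 0.782 CPM in TAC-LVH and 0.466, 0.112, 0.404 and 0.352 CPM in Sham-LVH, and these groups overlapped. The calls of Cdc20 and Bub1b did not hold in DESeq2 (adjusted p = 0.0686 and 0.0657) or without single libraries, and Bub1b was also lost in 1 fit of all 24 libraries (edgeR adjusted p = 0.0541). Cdc20 was lost without Sham-LVH library 2, 3 or 4 or TAC-LVH library 1, 3 or 4 (edgeR adjusted p = 0.0606 to 0.119), and Bub1b without Sham-LVH library 1, 2 or 3 or the same TAC-LVH libraries (edgeR adjusted p = 0.0751 to 0.123). Kif23 was lost without TAC-LVH library 4 (edgeR adjusted p = 0.062). Ccnb1 (cyclin B1, log2 1.45, edgeR adjusted p = 0.0718) and Foxm1 (the transcription factor of G2/M genes, log2 0.95, edgeR adjusted p = 0.139) did not pass. Ccnb1 passed without Sham-LVH library 4 or TAC-LVH library 2 (edgeR adjusted p = 0.0359 and 0.0409), and Foxm1 without Sham-LVH library 1 (edgeR adjusted p = 0.0355). In 1 fit of all 24 libraries Ccnb1 passed as well (edgeR adjusted p = 0.0294). Foxm1 had 0.940, 0.416, 0.584 and 0.810 CPM in TAC-LVH and 0.680, 0.112, 0.110 and 0.457 CPM in Sham-LVH, and Sham-LVH library 1 lay among the TAC-LVH values. Of the 7 mitotic genes below the filter, cyclin B2 (Ccnb2, log2 1.6) and the checkpoint kinase Bub1 (1.47) were called without it. Plk1 (1.54), Birc5 (survivin, 1.34), Aurkb (0.98), the ubiquitin-conjugating enzyme Ube2c (0.96) and Aurka (aurora A kinase, 0.56) were not.

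Cenpf (ENSMUSG00000026605, chromosome 1) went the other way. It had 5.43, 4.16, 6.90 and 4.72 CPM in TAC-LVH (110 to 189 counts) and 14.8, 14.0, 10.8 and 15.7 CPM in Sham-LVH (250 to 446 counts). Every TAC-LVH library was below every sham library. Cenpf was 2.60-fold lower, at 5.30 ± 1.184 against 13.8 ± 2.10 CPM (log2 -1.38 ± 0.155 SE, edgeR adjusted p = 2.98e-05), the decrease of rank 109 by size among the 14224 genes tested. The annotated processed pseudogene Gm37239, which overlaps Cenpf on the opposite strand, had 0 counts in the 24 libraries. Cenpa, another centromere gene, had 5.22, 5.41, 6.43 and 6.00 CPM in TAC-LVH and 5.91, 6.14, 5.66 and 6.54 CPM in Sham-LVH. Its groups overlapped, and its log2 fold change was -0.06 ± 0.111 SE (edgeR adjusted p = 0.692), a sign that turned to 0.34 under scaling to library totals, where the median over all genes was 0.41.

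S-phase genes had a smaller median fold change than mitotic genes at 2 weeks. Of 12, 11 passed the filter and 3 were called higher, with a median log2 fold change of 0.33 over those 11, against 1.39 over the 17 mitotic genes and 0.00 over all genes tested. Without the filter the medians were 0.36 over the 12 S-phase genes and 1.4 over the 23 mitotic genes other than Cenpf. The difference between these groups of genes was not tested. Mcm6 (ENSMUSG00000026355), a subunit of the replicative helicase, had 7.35, 6.78, 5.99 and 6.84 CPM in TAC-LVH and 3.58, 3.96, 3.46 and 3.52 CPM in Sham-LVH, so that the groups were far apart. It rose 1.87-fold (log2 0.90 ± 0.112 SE, edgeR adjusted p = 5.32e-05). Tyms, thymidylate synthase, had 3.34, 2.50, 2.26 and 2.71 CPM in TAC-LVH and 1.47, 0.447, 1.07 and 0.598 CPM in Sham-LVH, with no overlap and a wide spread among shams. It rose 2.94-fold (log2 1.55 ± 0.278 SE, edgeR adjusted p = 0.000831). Mcm5 had 2.61, 2.65, 2.92 and 2.40 CPM in TAC-LVH and 1.83, 1.396, 1.213 and 1.37 CPM in Sham-LVH, again with no overlap. It rose 1.82-fold (log2 0.86 ± 0.169 SE, edgeR adjusted p = 0.00152).

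The other subunits of the MCM helicase were not called. Their log2 fold changes were 0.38 for Mcm3, 0.15 for Mcm4, 0.13 for Mcm7 and 0.12 for Mcm2. Pcna had 11.3, 11.9, 13.3 and 13.0 CPM in TAC-LVH and 9.13, 11.1, 13.0 and 12.0 CPM in Sham-LVH, overlapping values with a log2 fold change of 0.13. The ribonucleotide reductase subunits Rrm1 (0.28) and Rrm2 (0.33) and the licensing factor Cdt1 (0.94, edgeR adjusted p = 0.109) were not called either, nor was the loading factor Cdc6 without the filter (0.57). In 1 fit of all 24 libraries Rrm1 and Cdt1 just passed (edgeR adjusted p = 0.0497 for each). Ccnd2 (cyclin D2) had 60.3, 60.2, 64.7 and 82.2 CPM in TAC-LVH and 60.0, 50.7, 39.9 and 52.1 CPM in Sham-LVH, and the lowest TAC-LVH library was just above the highest sham. It rose 1.33-fold (log2 0.41 ± 0.132 SE, edgeR adjusted p = 0.029), a call that was lost without Sham-LVH library 2 or 3 or TAC-LVH library 4 (edgeR adjusted p = 0.0694, 0.0686 and 0.111). Ccnd1 (cyclin D1) had 30.4, 21.5, 25.4 and 27.4 CPM in TAC-LVH and 25.1, 19.2, 17.2 and 24.0 CPM in Sham-LVH, which overlapped. Its log2 fold change was 0.30 ± 0.131 SE (edgeR adjusted p = 0.0992, and 0.0477 without TAC-LVH library 2).

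**Figure D2:**
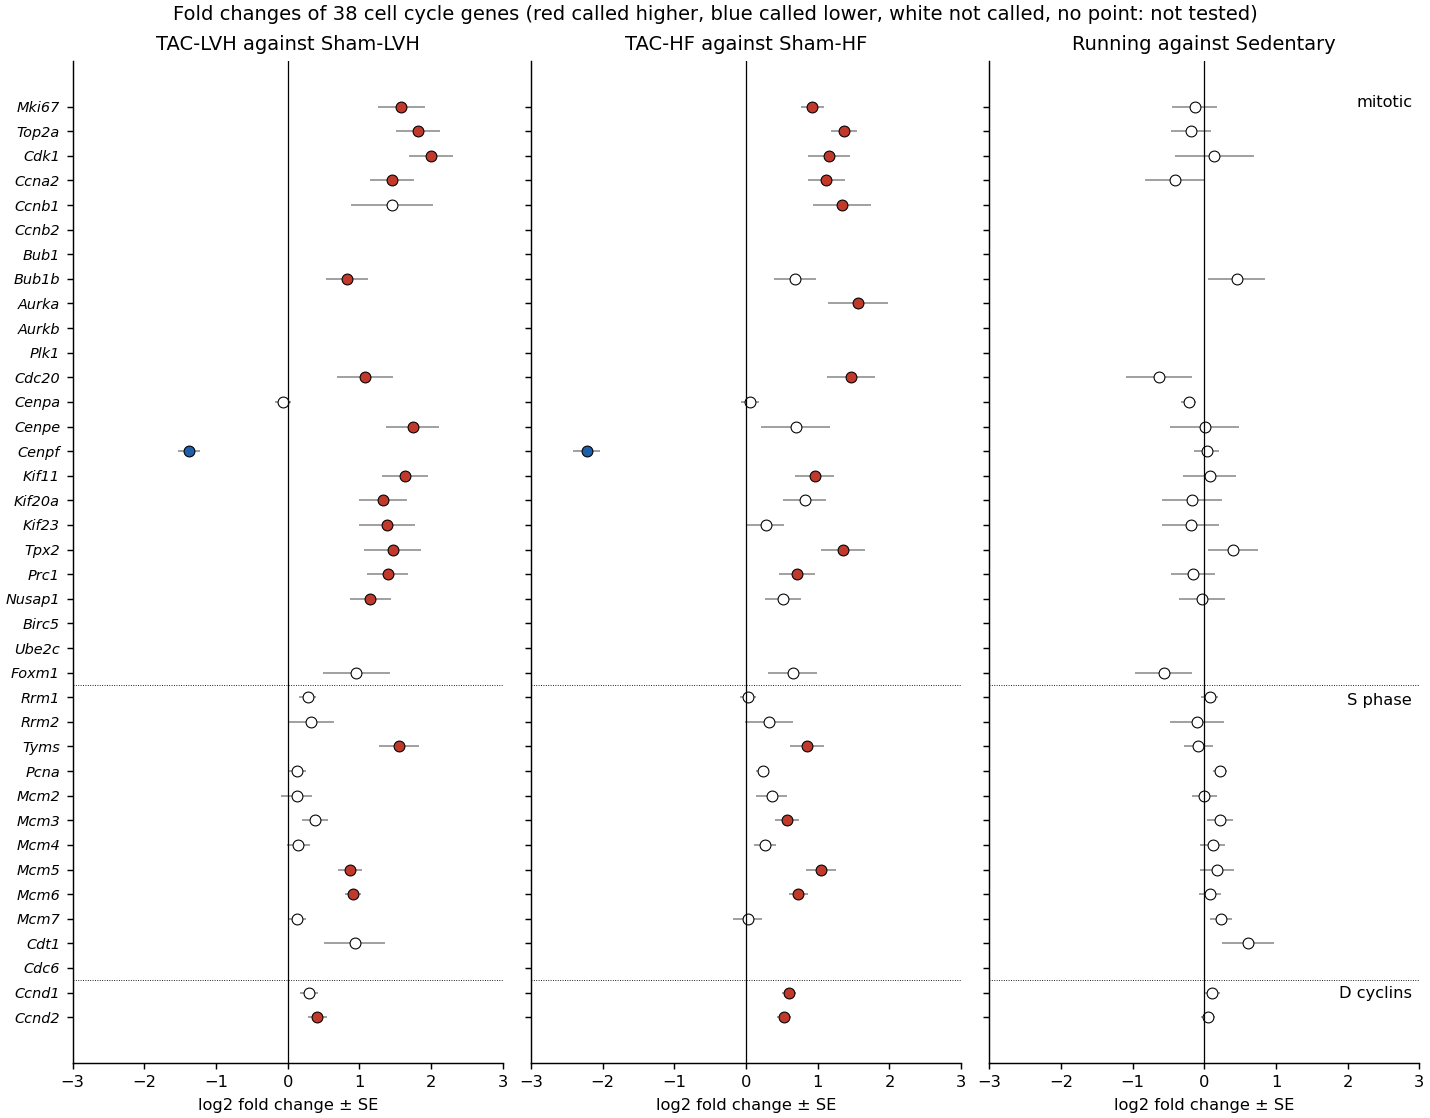
Log2 fold change ± SE (x axis) of each of the 38 genes (rows, grouped as mitotic, S phase and D cyclins) in 3 comparisons (panels). Filled points were called by edgeR at an adjusted p under 0.05 (red higher, blue lower), white points were not, and genes below the filter on low counts have no point. Cenpf is the 1 blue point in each TAC panel, and the running panel has no filled point.

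The comparison of TAC-HF with Sham-HF asks the same 8 weeks after surgery, with other libraries on both sides. Of the 18 mitotic genes that passed the filter 10 were called higher, Cenpf was called lower, and both D cyclins rose. Of the 38 genes, 30 passed the filter, and 16 were called higher and 1 lower (edgeR), against 14.9% of 13621 genes called higher and 14.7% called lower. Without the filter 18 were called higher and 1 lower (background 9.14% and 7.85%), and 37 of 38 had a positive log2 fold change. The groups did not overlap for 18 of all 38 genes that were higher and 1 that was lower. The background was 14.9% and 14.6% over the genes that passed the filter. Fibroblast markers summed to 1517 to 1799 CPM in TAC-HF and 874 to 1188 CPM in Sham-HF.

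Cenpf had 4.41, 5.87, 3.65 and 3.63 CPM in TAC-HF (89 to 152 counts) and 15.4, 19.8, 21.2 and 25.9 CPM in Sham-HF (332 to 454 counts). The highest TAC-HF library was far below the lowest sham library. Cenpf was 4.67-fold lower, at 4.39 ± 1.05 against 20.6 ± 4.34 CPM (log2 -2.22 ± 0.186 SE, edgeR adjusted p = 1.33e-05), the decrease of rank 13 by size among 13621 genes. Top2a had 4.94, 6.07, 3.37 and 4.74 CPM in TAC-HF and 1.81, 1.66, 1.95 and 2.04 CPM in Sham-HF, with shams close together and all TAC-HF libraries above them. It rose 2.57-fold (log2 1.36 ± 0.185 SE, edgeR adjusted p = 0.000124). Mki67 had 10.0, 10.7, 6.90 and 7.87 CPM in TAC-HF and 4.87, 3.66, 5.00 and 5.21 CPM in Sham-HF, without overlap. It rose 1.9-fold (log2 0.92 ± 0.156 SE, edgeR adjusted p = 0.000652). Cdk1 had 1.199, 0.812, 0.739 and 0.819 CPM in TAC-HF and 0.464, 0.349, 0.350 and 0.419 CPM in Sham-HF, without overlap, and rose 2.22-fold (log2 1.153 ± 0.293 SE, edgeR adjusted p = 0.00908).

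Of the 24 mitotic genes, 18 passed the filter at 8 weeks, 10 were called higher and Cenpf was called lower, and without the filter 12 were called higher. Cdc20, which turns on the ubiquitin ligase that ends metaphase, had 1.05, 0.889, 0.821 and 0.712 CPM in TAC-HF and 0.232, 0.218, 0.4997 and 0.299 CPM in Sham-HF, without overlap, and rose 2.76-fold (log2 1.47 ± 0.33 SE, edgeR adjusted p = 0.00439). Aurka (1.56), Tpx2 (1.36), Ccnb1 (1.34), Ccna2 (1.117), Kif11 (0.96) and Prc1 (0.71) completed the list of those called higher. Prc1 was lost without Sham-HF library 2, 3 or 4 or TAC-HF library 1, 2 or 4 (edgeR adjusted p = 0.055 to 0.139), Ccnb1 without Sham-HF library 2 or 3 (edgeR adjusted p = 0.0761 and 0.0552), and Kif11 without Sham-HF library 3 (edgeR adjusted p = 0.0537). Prc1 and Ccnb1 were also lost in DESeq2 (adjusted p = 0.0736 and 0.0542) and in 1 fit of all 24 libraries (edgeR adjusted p = 0.089 and 0.0788). Kif20a (0.82), Cenpe (0.69), Bub1b (0.69), Foxm1 (0.65), Nusap1 (0.52) and Kif23 (0.28) had positive values that did not pass. Foxm1 had 0.527, 0.927, 0.493 and 0.677 CPM in TAC-HF and 0.464, 0.262, 0.550 and 0.419 CPM in Sham-HF, which overlapped. Cenpa had 8.58, 7.54, 8.33 and 7.30 CPM in TAC-HF and 6.27, 9.46, 7.35 and 7.37 CPM in Sham-HF, overlapping values with a log2 fold change of 0.06 ± 0.129 SE (edgeR adjusted p = 0.779). Ube2c (1.64) and Kif20a were called without the filter, and Kif20a also without TAC-HF library 4 (edgeR adjusted p = 0.0187) and without the mitochondrial genes (edgeR adjusted p = 0.0498).

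Of the 12 S-phase genes, 10 passed the filter and 4 were called higher at 8 weeks, with a median log2 fold change of 0.34, against 0.87 over the 18 mitotic genes tested and 0.00 over all genes. Without the filter the medians were 0.49 over the 12 S-phase genes and 0.94 over the 23 mitotic genes other than Cenpf. This difference between the classes was not tested. Mcm6 had 5.85, 5.37, 6.12 and 5.77 CPM in TAC-HF and 3.90, 2.88, 3.30 and 3.89 CPM in Sham-HF, with the groups apart, and rose 1.66-fold (log2 0.73 ± 0.132 SE, edgeR adjusted p = 0.000992). Mcm5 had 2.11, 1.47, 2.26 and 2.21 CPM in TAC-HF and 0.975, 1.003, 0.999 and 0.898 CPM in Sham-HF, where TAC-HF library 2 was the lowest of its group and still above the shams. It rose 2.06-fold (log2 1.04 ± 0.208 SE, edgeR adjusted p = 0.00204). Tyms had 1.82, 2.32, 1.52 and 2.03 CPM in TAC-HF and 1.3, 0.654, 1.25 and 1.08 CPM in Sham-HF, also without overlap, and rose 1.81-fold (log2 0.85 ± 0.236 SE, edgeR adjusted p = 0.0143). Mcm3 was the other (log2 0.57, edgeR adjusted p = 0.0214), lost without Sham-HF library 2 or 3 or TAC-HF library 1 or 3 (edgeR adjusted p = 0.0513 to 0.066). Pcna had 12.0, 11.4, 12.4 and 10.3 CPM in TAC-HF and 9.47, 9.99, 10.1 and 9.70 CPM in Sham-HF. Its groups did not overlap, but it missed the threshold (log2 0.23 ± 0.0955 SE, edgeR adjusted p = 0.0829). Mcm7 had 3.74, 3.25, 5.17 and 2.56 CPM in TAC-HF and 3.02, 4.23, 3.60 and 3.59 CPM in Sham-HF, overlapping in both directions, with a log2 fold change of 0.02. Values for Mcm2 (0.36), Rrm2 (0.32), Mcm4 (0.26) and Rrm1 (0.03) did not pass either. Cdt1 (0.70) and Cdc6 (0.62) were below the filter and were not called without it.

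The D cyclins come last. Ccnd1 had 24.3, 30.9, 30.3 and 31.6 CPM in TAC-HF and 18.2, 18.0, 20.0 and 21.2 CPM in Sham-HF, without overlap, and rose 1.52-fold (log2 0.60 ± 0.0984 SE, edgeR adjusted p = 0.000508). Ccnd2 had 77.2, 76.2, 57.7 and 81.4 CPM in TAC-HF and 49.3, 52.2, 51.3 and 49.9 CPM in Sham-HF, where the shams lay within a narrow range below all TAC-HF libraries. It rose 1.44-fold (log2 0.53 ± 0.0992 SE, edgeR adjusted p = 0.00132).

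The calls of the 2 TAC comparisons overlapped in 12 genes called higher, which is 70.6% of the 17 at 2 weeks and 75.0% of the 16 at 8 weeks. Over all genes called higher, 1191 were called in both, 49.1% of 2428 and 58.6% of 2032, and the difference between these shares was not tested. The 12 were Mki67, Top2a, Cdk1, Ccna2, Cdc20, Kif11, Tpx2, Prc1, Tyms, Mcm5, Mcm6 and Ccnd2. Cenpf was the 1 gene called lower in both. The 2 comparisons share no library. The test of the difference itself, the TAC-HF effect minus the TAC-LVH effect, called 0 of the 34 genes that passed its filter (edgeR), against 0.933% of 14463 genes called higher and 0.422% called lower. At an unadjusted p under 0.05 it had 2 genes, Cenpf and Kif23, against 2764 of the 14463 genes. DESeq2 called 1, Cenpf, with 490 genes called higher and 177 lower of 8485 over all genes. For Cenpf the difference was -0.84 ± 0.259 SE on the log2 scale (edgeR adjusted p = 0.0986). It passed in DESeq2 (adjusted p = 0.0304) and without TAC-HF library 2 (edgeR adjusted p = 0.0426). The sham groups differed in Cenpf by 0.57 on the log2 scale, higher in Sham-HF (edgeR adjusted p = 0.0576), and this too passed in DESeq2 (adjusted p = 0.0147), without the filter (edgeR adjusted p = 0.0243, with 1.63% of all genes called higher) and without Sham-HF library 1 (edgeR adjusted p = 0.0317). Of the 25 genes tested between the sham groups, 0 were called by edgeR, against 2.2% of 13656 genes called higher and 1.44% lower. An unadjusted p under 0.05 was found for 4 of the 25, against 2985 of the 13656 genes. DESeq2 called 1 gene between the shams, Cenpf, with 520 genes called higher and 320 lower of 13003 over all genes.

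**Figure D3:**
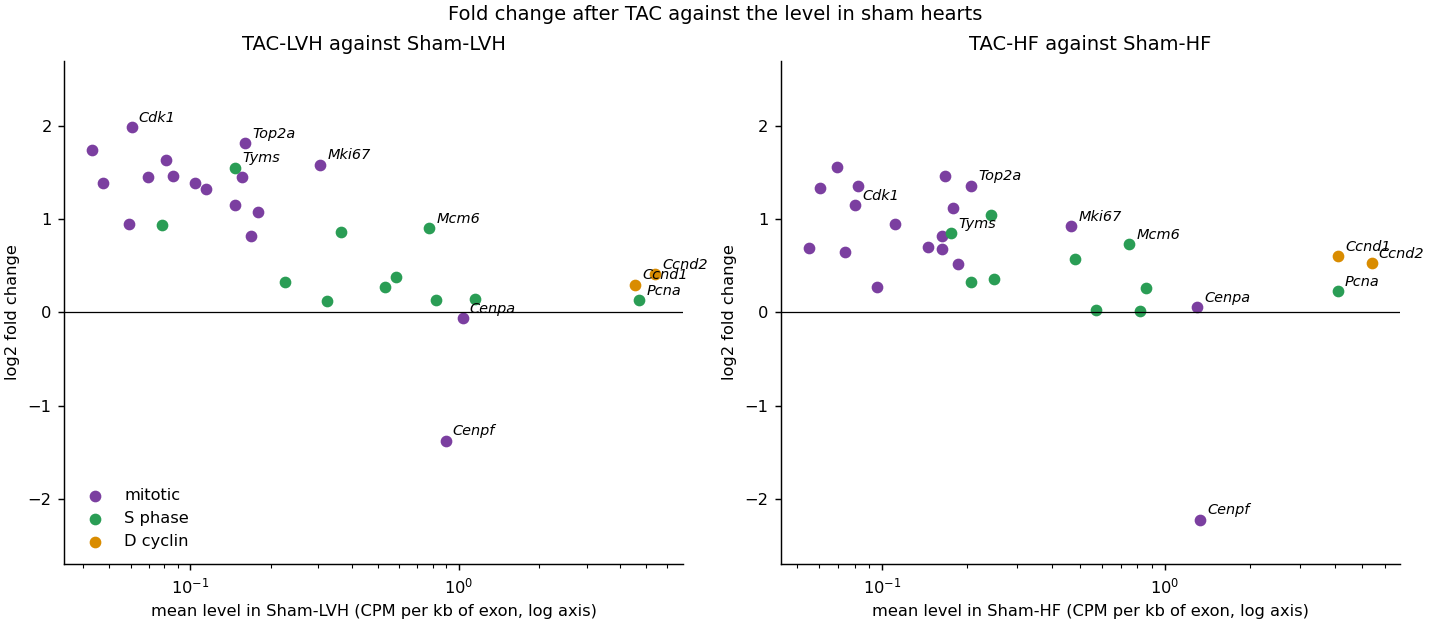
Log2 fold change after TAC (y axis) against the mean level in the sham group (x axis, CPM per kb of exon, log axis) for the 30 genes that passed the filter in each comparison (panels), coloured by class. Cenpf lies near Cenpa on the x axis in both panels but at -1.38 and -2.22 on the y axis, where Cenpa is at -0.06 and 0.06.

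As a share of the mitotic transcripts, Cenpf set the TAC libraries apart from all others. Cenpf held 43.6% ± 3.64 (SD, n = 4) of the counts of the 24 mitotic genes in Sham-LVH, from 38.8% to 47.6%, and 12.1% ± 2.52 in TAC-LVH, from 9.10% to 14.3%. In Sham-HF it held 46.4% ± 5.13, from 39.4% to 51.7%, and in TAC-HF 10.1% ± 1.1, from 9.16% to 11.7%. Sedentary (42.1% ± 3.60) and Running hearts (45.0% ± 12.3) were near the shams, and Running ranged from 30.8% to 60.7%. All 8 TAC libraries were below all 16 others. The other 23 mitotic genes summed to 18.2 ± 4.85 CPM in Sham-LVH and 39.7 ± 9.77 in TAC-LVH, and to 23.5 ± 0.617 in Sham-HF and 38.7 ± 6.28 in TAC-HF. The 12 S-phase genes summed to 36.6 ± 1.2 CPM in Sham-LVH and 47.0 ± 2.64 in TAC-LVH, and to 32.9 ± 1.1 in Sham-HF and 41.4 ± 2.84 in TAC-HF. These shares weight genes by length and level, since counts grow with transcript length.

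**Figure D4:**
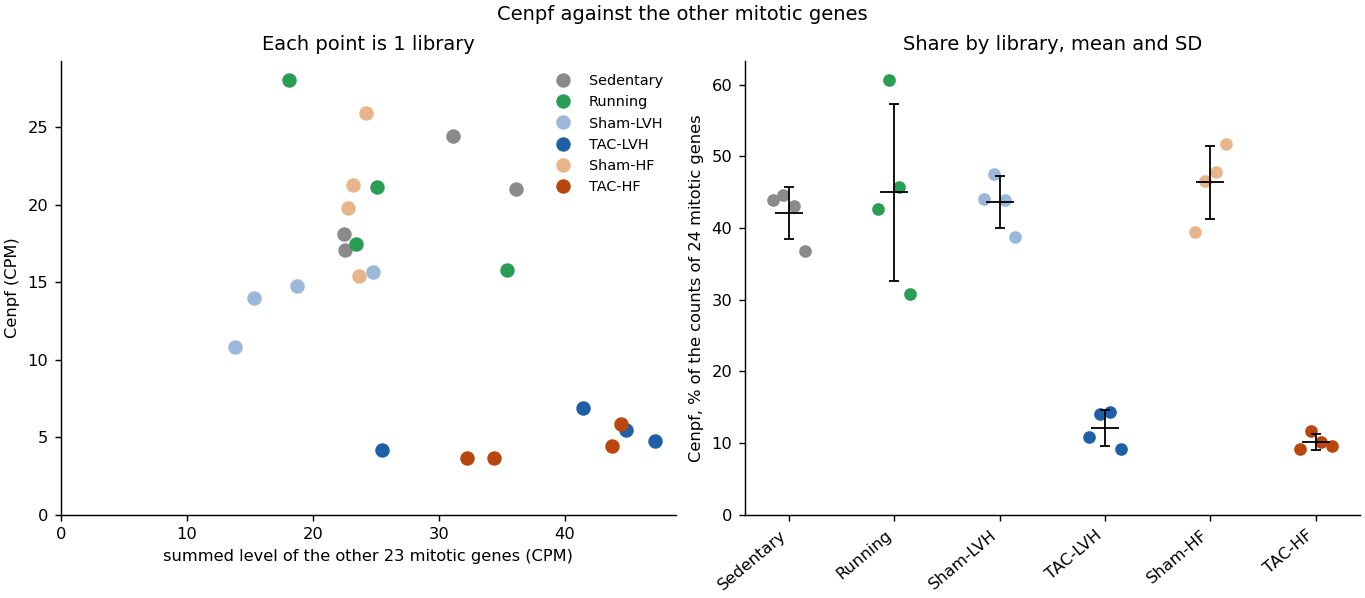
Left, Cenpf in CPM (y axis) against the summed CPM of the other 23 mitotic genes (x axis) in each of 24 libraries, coloured by group. Right, Cenpf as a percentage of the counts of the 24 mitotic genes by library (points) with group mean and SD (bars). The 8 TAC libraries lie at 9.10% to 14.3% and the 16 others at 30.8% to 60.7%.

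Within groups, the correlations of Cenpf with other mitotic genes were lower than those of Mki67, without a test of that difference. Deviations of log2 CPM from the group mean over the 24 libraries gave Mki67 a median Pearson correlation of 0.64 with 20 other mitotic genes, with 0.93 for Top2a. The median for Cenpf was 0.17 over its own 20, with 0.52 for Ccnb1 as the highest. These are descriptions over libraries that differ in depth.

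The comparison of Running with Sedentary asks which genes differ after exercise, and none of the 38 passed the test. Of the 38, 29 passed the filter and 0 were called by edgeR, against 0% of 13824 genes. An unadjusted p under 0.05 was found for 665 of the 13824 genes. That share is below 0.05, so no more than this threshold passes on average where no gene differs. DESeq2 called 7 genes, none of them among the 38. The 1 gene of the 38 with an unadjusted p under 0.05 was Pcna. Pcna had 9.78, 9.64, 8.92 and 8.80 CPM in Running and 7.42, 8.57, 8.00 and 7.95 CPM in Sedentary. All running values were above all sedentary values, by 0.22 ± 0.1 SE on the log2 scale (edgeR adjusted p = 1.00). The groups did not overlap for 2 genes that were higher (Pcna and Cdc6) and 2 that were lower (Cenpa and Aurkb). The background was 1.48% in each direction over the genes that passed the filter, while all 38 were counted here.

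Cenpa had 6.43, 5.98, 7.05 and 6.60 CPM in Running and 7.51, 7.38, 7.95 and 7.46 CPM in Sedentary. Every running library was below every sedentary one, with a log2 fold change of -0.22 ± 0.104 SE. Cdc20 had 0.628, 0.197, 0.398 and 0.733 CPM in Running and 0.615, 0.809, 0.288 and 1.28 CPM in Sedentary, and Foxm1 had 0.209, 0.393, 0.757 and 0.943 CPM in Running and 1.108, 0.904, 0.576 and 0.734 CPM in Sedentary. Both overlapped and had negative log2 values (-0.63 and -0.57). Cdt1 had 0.523, 0.511, 0.597 and 0.733 CPM in Running and 0.338, 0.190, 0.461 and 0.611 CPM in Sedentary (log2 0.60), and Mcm7 had 5.39, 3.82, 4.22 and 3.51 CPM in Running and 3.38, 3.71, 3.69 and 3.61 CPM in Sedentary (log2 0.24). Both overlapped.

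Cenpf, which fell after TAC, had 17.5, 28.0, 21.1 and 15.8 CPM in Running and 24.4, 18.1, 17.0 and 21.0 CPM in Sedentary, widely overlapping values with a log2 fold change of 0.03 ± 0.177 SE. Mki67 had 5.49, 3.62, 5.70 and 8.69 CPM in Running and 8.00, 4.38, 4.38 and 8.74 CPM in Sedentary (log2 -0.13 ± 0.313 SE), with 2 high and 2 low values in the sedentary group. Top2a (-0.19), Cdk1 (0.14), Ccnd1 (0.11), Tyms (-0.08), Mcm6 (0.08) and Ccnd2 (0.05) were of like size. The sign of the Cenpf and Ccnd2 values turned under scaling to library totals.

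The TAC effects were then set against the running effect in tests of the difference itself. Both of these tests use the same Running and Sedentary libraries. The TAC-LVH effect minus the running effect was called higher for 8 of 32 genes that passed the filter and lower for 1, against 9.5% of 14729 genes higher and 9.56% lower (edgeR). They were Ccnb2 (2.28), Top2a (2.00), Ccna2 (1.87), Mki67 (1.72), Tyms (1.64), Kif11 (1.56), Prc1 (1.55) and Mcm6 (0.83) on the log2 scale, with Cenpf at -1.41. The TAC-HF effect minus the running effect was called higher for 7 of 31 genes and lower for 1, against 5.74% of 14252 genes higher and 5.35% lower. They were Cdc20 (2.11), Top2a (1.56), Ccna2 (1.54), Tyms (0.94), Mcm6 (0.66), Ccnd1 (0.50) and Ccnd2 (0.48), with Cenpf at -2.25 (edgeR adjusted p = 0.000114). These calls moved with the processing and with single libraries. Mki67 in the first test and Mcm6 in the second were lost without the filter (edgeR adjusted p = 0.0725 and 0.0532). Tyms in the second was lost in DESeq2 (adjusted p = 0.0758), with its size factors in edgeR, without the filter and in 1 fit of all 24 libraries (edgeR adjusted p up to 0.0934). That single fit also ended the calls of Ccna2, Ccnd1 and Ccnd2 in the second test (edgeR adjusted p = 0.0508, 0.0636 and 0.0664). The first test had 9 calls in all, 5 without TAC-LVH library 4, and 14 to 16 without Running library 4, Sham-LVH library 4 or TAC-LVH library 2. The second had 8 calls, and 2 to 5 without any 1 library except Sedentary library 1, Running library 4, Sham-HF library 1 and TAC-HF library 3. In every alternative run, Top2a, Ccna2, Tyms, Mcm6 and Cenpf kept their calls in the first test and Top2a and Cenpf in the second.

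Further genes of the pathway were counted in 6 lists, to be read against the 17.1% of all genes called higher and 16.1% lower at 2 weeks and the 14.9% and 14.7% at 8 weeks. Genes of the spindle and cytokinesis outside the 38 had the largest share of higher calls among the 6 lists. Of 26 tested at 2 weeks, 18 were called higher and 1 lower, with a median log2 fold change of 1.01. This list holds 44 genes, of which 17 passed the filter in the running comparison and 16 between the shams. A scarce gene can pass through the group in which it is high. The share and median may therefore partly reflect the filter, and no count without it is given for this list. Anln, which encodes the cleavage furrow protein anillin (1.94), the condensin subunit Smc4 (0.67) and the spindle protein gene Ckap2l (2.02) had the smallest p-values, and the securin gene Pttg1 was the 1 called lower (-0.57). At 8 weeks 12 of 27 were called higher and 0 lower (median 0.53), led by the chromokinesin gene Kif4 (1.74), the spindle gene Spag5 (1.4) and Ckap2 (1.56). Of 26 other kinetochore genes, 4 were called higher and 1 lower at 2 weeks, no larger a share than over all genes (17.1% and 16.1%), among them the outer kinetochore scaffold Knl1 (1.77) and Kntc1 (1.71). At 8 weeks 0 of 21 were called higher by edgeR and Sgo2a, a protector of cohesin, was called lower (-0.37).

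Other replication genes had shares of calls below those over all genes, a difference that was not tested. Of 45 tested at 2 weeks, 3 were called higher (Uhrf1, 1.33; Mcm9, 0.73; Timeless, 0.57) and 5 lower, and at 8 weeks 2 of 43 were higher (Uhrf1, 1.172; Timeless, 0.82) and the thymidine kinase gene Tk1 lower (-0.95). Uhrf1 maintains DNA methylation at replication forks. Of 24 regulators of the G1/S step, 4 were called higher and 4 lower at 2 weeks, close to the shares over all genes. E2f1 was higher (1.55), while Tfdp2, which encodes a partner of E2F proteins (-0.91), and the pocket protein gene Rbl2 (-0.34) were lower. At 8 weeks Tfdp2 (-0.56) was the 1 called of 21. Of 19 CDK inhibitor and checkpoint genes, 3 were called higher (Cdkn2b, 2.60; Cdkn1a, 0.78; Trp53, 0.55) and 3 lower at 2 weeks, again close to the shares over all genes. At 8 weeks 0 of 16 were called. After running, 0 genes of these 6 lists were called by edgeR.

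The sixth list holds 12 genes of proteins known to bind or work with the Cenpf protein. At 2 weeks 0 were called higher and 2 lower, the genes for the mitochondrial Miro GTPases Rhot2 (-1.0) and Rhot1 (-0.35), which is near the share of all genes called lower. At 8 weeks Rhot2 (-0.78) and the syntaxin gene Stx4a (-0.61) led 4 called lower, and the dynein regulator Ndel1 was higher (0.31). The genes called in each list are those of an edgeR adjusted p under 0.05, and no list was tested as a set.

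**Figure D5:**
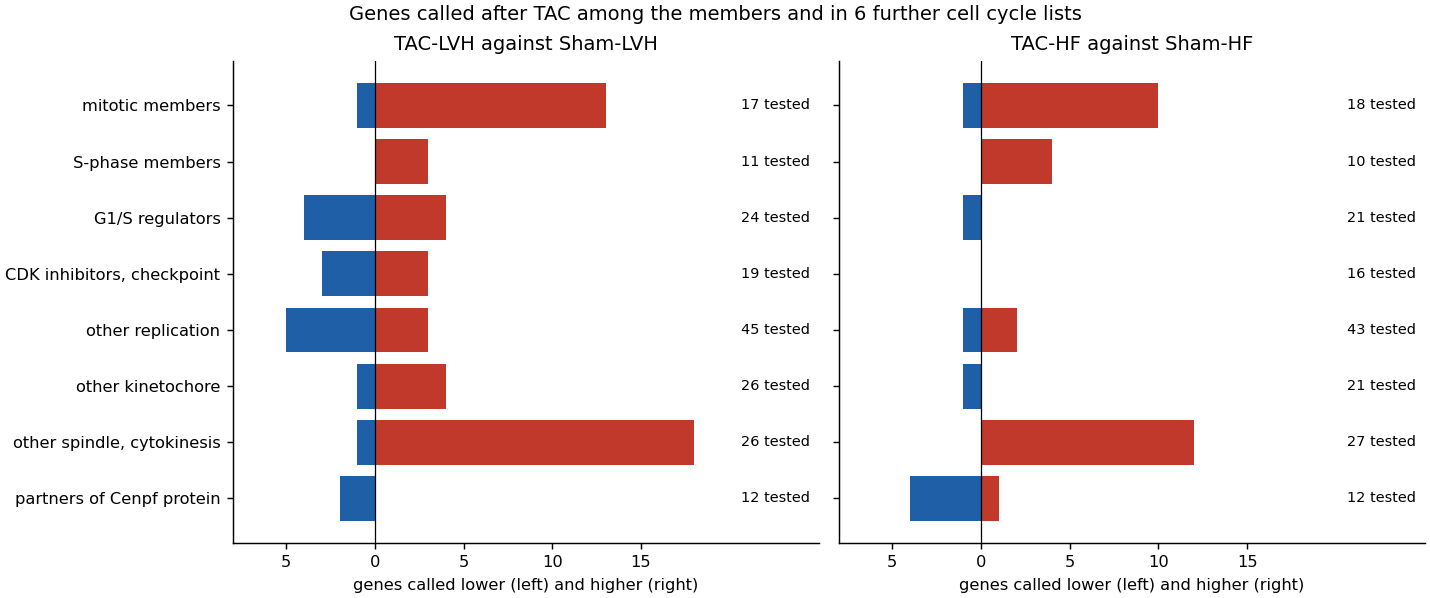
Number of genes called higher (red, right of 0) and lower (blue, left of 0) by edgeR after TAC in the mitotic and S-phase genes and in 6 further lists (rows), at 2 weeks (left panel) and 8 weeks (right panel), with the number tested at the right of each row. Spindle and cytokinesis genes have 18 and 12 genes called higher.

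Genes with a level pattern most like that of Cenpf across the 24 libraries were sought among genes of moderate or high level, a pool that holds 4 of the 24 mitotic genes (Cenpf, Mki67, Top2a and Cenpa), so that most mitotic genes could not appear. By Pearson correlation of log2 CPM among 10439 genes with a mean of at least 2 CPM, those most alike included Syt7 (0.96), Fto, mt-Nd5, Camk2a, Celsr2, Dsg2, Ppp1r9a, Slc25a42 and Ttll1 (0.93). Each gene named here was called lower in both TAC comparisons (edgeR), with log2 fold changes at 2 weeks from -0.43 (Fto) to -1.34 (Slc25a42). The genes most like Cdk1 were Smc2 (0.88), Arfgap3, Timp1, Tnc, Arl6ip1, Top2a, Gab2, Msn, Anxa2 and Vcan (0.79), all called higher in both. Differences between groups enter these correlations, which are descriptions over 24 libraries.

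Cell type markers also differed between TAC and sham hearts. For these markers too, the number of cells of a type and the RNA per cell cannot be told apart. The shares over all genes were 17.1% called higher and 16.1% lower at 2 weeks, and 14.9% and 14.7% at 8 weeks. Of 12 cardiomyocyte markers, 9 were called lower at 2 weeks (median log2 -0.74), and their summed level was 37863 to 45379 CPM in TAC-LVH and 58888 to 66211 in Sham-LVH. At 8 weeks 5 were called lower and 1 higher, with sums of 46273 to 55678 CPM in TAC-HF and 62665 to 65704 in Sham-HF. Of 10 fibroblast markers, 9 were called higher at 2 weeks and 7 at 8 weeks. Markers of activated fibroblasts were called higher in 9 of 10 and 8 of 9 tested, with sums of 871 to 1593 CPM in TAC-LVH against 102 to 140, and 529 to 1052 in TAC-HF against 72.9 to 135. Macrophage and monocyte markers were called higher in 9 and 8 of 10, with sums of 270 to 355 CPM against 137 to 212, and 172 to 263 against 100 to 151. Endothelial markers were called higher in 6 of 10 at 2 weeks and in 0 at 8 weeks by edgeR. Mural markers, of pericytes and smooth muscle, had 5 of 10 called higher and 1 lower at 2 weeks and 3 higher and 1 lower at 8 weeks. Markers of T cells, B cells and neutrophils summed to at most 3.53 CPM in any library, and the neutrophil gene Elane had no count in any group. The part of these shifts in the cell cycle results was not tested.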

How the data were processed

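Ribosomal-RNA-depleted total RNA of mouse hearts was sequenced as 24 libraries after Trizol extraction, per the labels' protocols. The authors deposited a matrix of estimated counts, as whole numbers and not normalized. FastQC, Salmon and the build mm9 are named per the submitters' processing notes. Software versions, annotation release and strandedness were not given in the sources used here. Counts in the 1 row without a gene name made up 0% of the total, and that row was left out. Symbols came by identifier from GENCODE M21 (GRCm38), which named 42462 identifiers and left 970 unnamed. Promoters came from a RefSeq table.

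Each comparison was fitted on its own groups, taken from the labels, with edgeR 4.0.16 in R 4.3.3: filterByExpr with a minimum count of 10, TMM scaling, and the robust quasi-likelihood F test (two-sided). P-values were adjusted after Benjamini and Hochberg over all genes tested and called under 0.05. Differences between effects are contrasts over 4 groups. CPM were computed after TMM over 24 libraries, and log2 CPM used a prior count of 0.5. Marker and gene lists are summed or counted, with no set test. The alternatives were DESeq2 1.42.0, its size factors in edgeR, library totals, no filter, no mitochondrial genes, all libraries in 1 fit, a replicate block, a library order term for running, and leaving out each library.

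The 38 genes, the lists, the tests and the alternatives were chosen with earlier results of these data known. Values in every library are given for Cenpf, Ccnd1, Ccnd2, Mki67, Top2a, Cdk1 and the 3 mitotic and 3 S-phase genes with the smallest p in each main comparison, and of each further list up to 3 genes with the smallest p after TAC are named. Some genes that these rules select are not reported here. Bub1b, Kif23 and the other members stand by fold change. Pttg1, Sgo2a at 8 weeks, Tk1 and genes singled out for a count of 5 or fewer were named after their values were seen. The labels do not say that the 4 libraries of a group are separate animals, so p-values measure the spread between these libraries, which may be technical. No library pair held identical counts. The fits were tested on simulated counts: of genes changed 2-fold, edgeR called 83.3% in the simulation of TAC-LVH (14056 genes), 75.5% in that of TAC-HF (13435 genes) and 80% in that of running (13653 genes). The changed genes were drawn at random from all genes tested, so these shares do not give the recovery of genes as scarce as many of the 38. Far fewer genes changed in the simulations than were called after TAC.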

Additional observations from a re-analysis of the deposited data

Results flagged for a closer look

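The effects of TAC and of running differed, by a test of the difference itself, for 17 of the values described, on the log2 scale and by edgeR. The TAC-LVH effect minus the running effect was 2.28 for Ccnb2, 2.00 for Top2a, 1.87 for Ccna2, 1.72 for Mki67, 1.64 for Tyms, 1.56 for Kif11, 1.55 for Prc1 and 0.83 for Mcm6, and it was -1.41 for Cenpf. The TAC-HF effect minus the running effect was 2.11 for Cdc20, 1.56 for Top2a, 1.54 for Ccna2, 0.94 for Tyms, 0.66 for Mcm6, 0.50 for Ccnd1 and 0.48 for Ccnd2, and it was -2.25 for Cenpf. Of these calls, 5 of 9 and 2 of 8 held in every alternative run. Over all genes the first difference was called higher for 9.5% and lower for 9.56%, and the second for 5.74% and 5.35%. Cenpf was the 1 gene of the 38 with a negative called difference in both, and these 2 tests share the Running and Sedentary libraries.

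By a fixed cut, no library stood apart from the other 3 of its group in any of the 90 groups examined. These cover 15 genes described by library in 6 groups. The measure was the gap to the nearest library as a share of the group's range. Other genes and sums over genes were not examined. Among them, Bub1b had 0.643 CPM in TAC-LVH library 2 and 1.497 to 1.508 CPM in the other TAC-LVH libraries. The mitotic genes other than Cenpf summed to 25.5 CPM in TAC-LVH library 2. They summed to 41.4 to 47.1 CPM in the other TAC-LVH libraries and to 24.8 CPM in Sham-LVH library 4.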

How the results depend on the processing

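Of the called genes, 14 of 18 at 2 weeks and 13 of 17 at 8 weeks after TAC kept their calls in every alternative run. Cenpf was among them, at -1.54 to -0.97 and -2.40 to -1.89 on the log2 scale. Under scaling to library totals the median of all genes moved to 0.41 and 0.33, and 29 and 26 genes of the 38 were called in TAC-LVH and TAC-HF, with 22 and 18 for their differences from running. Of all genes, that scaling called 49.2% higher and 4.32% lower in TAC-LVH, 44.6% and 4.17% in TAC-HF, and 30.6% and 21.2% higher for those differences. Under that scaling Cenpa at 2 weeks was 0.34, and after running Cenpf was -0.00529 and Ccnd2 -0.0239. One fit of all 24 libraries gave 15 and 5 calls for the differences from running. Over all 14735 genes that fit called 1470 higher and 1518 lower for the first difference, and 814 and 844 for the second. DESeq2 called 1 gene, Cenpf, for the difference between the TAC effects and between the shams, where no filter also gave 1. Over all genes DESeq2 called 490 higher and 177 lower of 8485 for that difference, and 520 and 320 of 13003 between the shams. Same-numbered libraries correlated at -0.14 to 0.29, above 0.1 in some pairs only, such as numbers 1 and 2 of Running and Sedentary (0.29 and 0.17). Whether the numbers mark pairs was not tested. The replicate block gave 20, 17 and 0 calls for TAC-LVH, TAC-HF and running, 15 and 8 for the differences from running, and 1 between the shams. Over all genes the block called 25 higher and 22 lower of 13824 after running, where the main fit called 0. It called 2683 higher and 2676 lower of 14224 in TAC-LVH, and 1769 and 1802 of 13621 in TAC-HF. For the differences from running it called 1565 higher and 1692 lower of 14729, and 851 and 834 of 14252. Between the shams it called 310 higher and 174 lower of 13656. Foxm1 and Ccnd1 at 2 weeks passed with the block (edgeR adjusted p = 0.034 and 0.0108), as did Cenpf between the shams (edgeR adjusted p = 0.0472). Tyms for the TAC-HF difference from running did not (edgeR adjusted p = 0.0607).

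Leaving out each library in turn gave 14 to 23 calls at 2 weeks, 13 to 17 at 8 weeks and 0 after running, 0 to 1 for the difference between TAC effects, 5 to 16 and 2 to 7 for the differences from running, and 0 to 1 between shams. Values near 0 changed sign there. After running they ranged from -0.15 to 0.15 for Cenpf, -0.0345 to 0.11 for Ccnd2, -0.38 to 0.0464 for Mki67, -0.40 to 0.018 for Top2a, -0.17 to 0.47 for Cdk1 and -0.14 to 0.00451 for Tyms. At 2 weeks Mcm2 ranged from -0.0513 to 0.29, and at 8 weeks Cenpa from -0.0411 to 0.18, Rrm1 from -0.0263 to 0.0915 and Mcm7 from -0.19 to 0.17. The causes were not tested. Depth limits scarce genes: Aurkb had at most 14 counts in a library, Cdc6 at most 19 and Cdt1 at most 21.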
